A study of Homo sapiens with 6 samples.

Results

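The genes of the proteasome were followed in TE-1 cells that overexpress FGL1. Members were the listed genes whose symbol is PSM followed by a letter from A to G and a number, leaving out the interferon-inducible genes PSMB8 and PSMB9. Of 12180 listed protein-coding genes, 44 met this rule, and 156 of 33090 listed transcripts belonged to them. They divide into 15 core genes (PSMA and PSMB), 20 cap genes (PSMC and PSMD), 5 genes of activators and an inhibitor (PSME and PSMF1) and 4 assembly genes (PSMG).

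TE-1 is a cell line from a human esophageal squamous cell carcinoma. RNA-seq covered 3 control libraries and 3 libraries with FGL1 overexpression (FGL1-OE). The labels give the control genotype as WT, whereas the study's methods describe lentiviral controls with a nonsense insert, called NC, and the controls are named that way in what follows. Stable lines were made by lentiviral infection and puromycin selection. Whether a line was 1 clone, and whether the libraries of a group came from separate cultures, is not given in the sources used here, so the p-values measure only the spread between these libraries, which may be technical.

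The values are FPKM, which correct for transcript length and library depth. The depth itself is unknown, since the tables used here hold FPKM and no read counts. FGL1 was listed at 0.0202, 0 and 0.106 FPKM (NC 1 to 3) against 33.5, 39.3 and 39.9 FPKM (FGL1-OE 1 to 3), in the direction of the labels. NC 1 and NC 2 stood apart, with a correlation of log2(FPKM + 1) across genes of 0.885, while FGL1-OE libraries correlated at 0.981 or more. Of 12 squamous and epithelial markers, 10 matched a listed gene. KRT8, KRT18, EPCAM, CDH1 and KRT6A were at 32.2 FPKM or more in every library, KRT5, KRT17, DSG3 and DSP lay between 4.27 and 40.9 FPKM, TP63 was at 0.779 FPKM or less, and KRT14 and SOX2 matched no listed gene. Of the 9 markers tested, 7 were higher in FGL1-OE and 2, KRT5 and KRT8, were lower. CDH1 and KRT6A, the markers with an unadjusted p under 0.05, were higher by 0.54 and 0.50 on the log2 scale (limma unadjusted p = 0.0263 and 0.0241), and their part in the results on the proteasome genes was not tested. None of the 5 blood and 4 endothelial markers matched a listed gene, and 3 of 5 fibroblast markers did, summing to between 2.29 and 8.11 FPKM in NC and between 3.24 and 8.27 FPKM in FGL1-OE.

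The proteasome is the protease that degrades proteins tagged with ubiquitin. Its barrel-shaped core has rings of alpha subunits, which form the gate, and rings of beta subunits, some of which cut peptide bonds, and its cap holds a ring of ATPases that unfold substrates and non-ATPase subunits that bind and remove ubiquitin. Its subunits are made in fixed proportions, and cells that need more proteasome raise many subunit genes together through the transcription factor NFE2L1, which binds antioxidant response elements.

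All 44 genes averaged 0.5 FPKM or more and so entered the test, and the lowest member value in any library was 1.59 FPKM. In the gene table, 37 of the 44 had a higher mean log2(FPKM + 1) in FGL1-OE than in NC and 7 had a lower one, where 53.7% of all 12017 genes tested were higher. None of the 44 passed limma with Benjamini-Hochberg adjustment over all genes, where 0.00832% of genes, FGL1 alone, did. At an unadjusted p under 0.05 there was 1 member, against 2.01% of all genes. It was PSMD8, which was higher (1.21% of all genes), and 0 members were lower (0.807%). The groups of libraries did not overlap for 5 members, PSMA3, PSMC1, PSMC5, PSMD8 and PSMD11, against 7.15% of all genes. All 5 were higher in FGL1-OE, against 4.09% of all genes in that direction and 3.06% in the other. The median log2 fold change was 0.15 for the members and 0.02 for all genes. The members' median was 0.09 without NC 1 and 0.22 without NC 2, where the median of all genes was -0.01 and 0.04. The members were expressed higher than most genes, with a median level of 38.9 FPKM against 5.80 FPKM, and the added 1 understates changes of low genes. With a pseudocount of 0.1 instead, the medians were 0.16 for the members and 0.02 for all genes. In bulk RNA, a level per cell and a share of cells cannot be told apart.

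**Figure D1:**
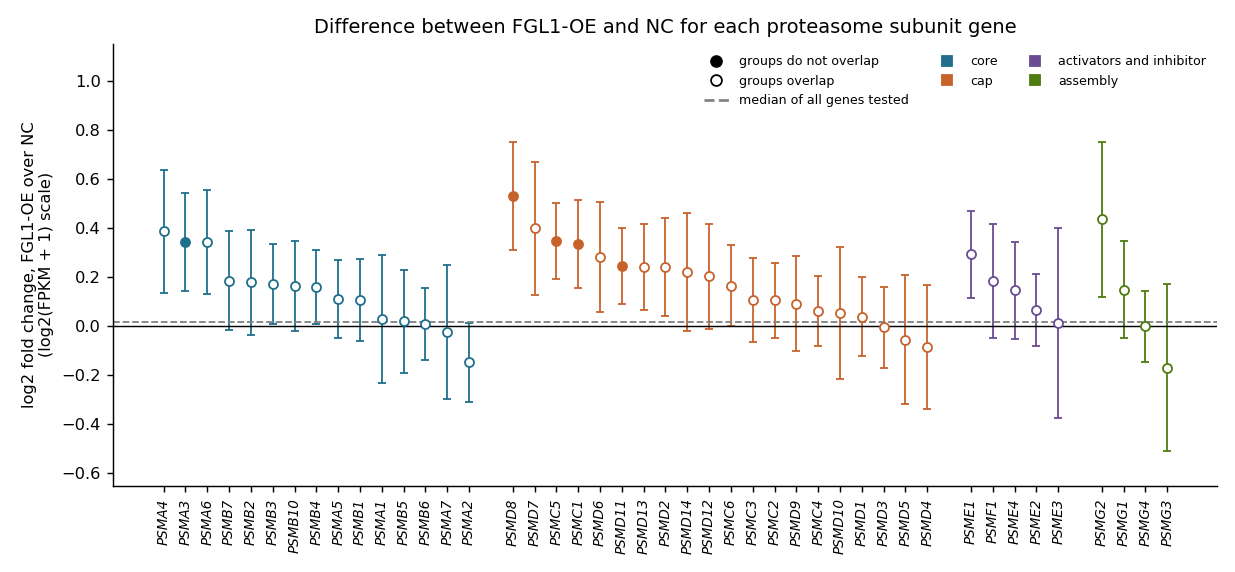
Log2 fold change of FGL1-OE over NC on the log2(FPKM + 1) scale for the 44 genes, by class, with bars of 1 standard error either side; filled points mark genes whose groups do not overlap, and the dashed line is the median of all 12017 genes tested. Most points lie above 0, from -0.17 for PSMG3 to 0.53 for PSMD8, and 5 points are filled.

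NC 1 lay lowest among the 6 libraries for most members. The median distance of the 44 genes from their own mean over the 6 libraries was -0.27, -0.00 and -0.02 (NC 1 to 3) and 0.11, 0.03 and 0.08 (FGL1-OE 1 to 3), as log2 differences. Over all genes tested, the same medians lay between -0.08 in NC 1 and 0.03. NC 1 held the lowest of the 6 values for 27 of the 44 genes (61.4%) and for 41.3% of all genes. Without NC 1, 31 of the 44 were higher, against 47.8% of all genes, and 0 had an unadjusted p under 0.05, against 1.53% of genes that were higher and 1.22% that were lower. Without NC 2, 35 were higher, against 54.2% of all genes, and 11 of them had an unadjusted p under 0.05, against 11.2% of all genes that were higher and 10.6% that were lower, and none of the 44 was lower at that threshold.

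**Figure D2:**
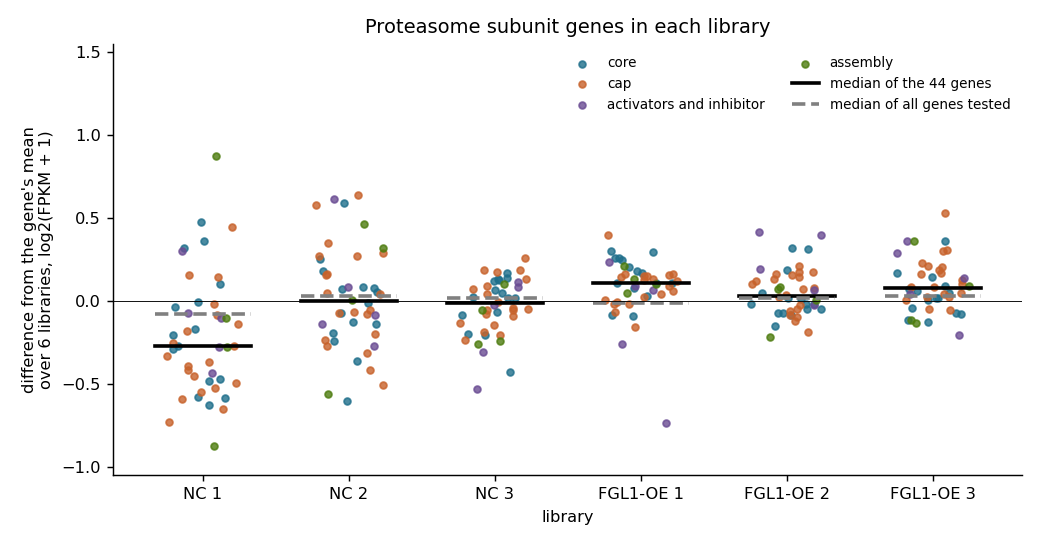
Distance of each of the 44 genes from its own mean over the 6 libraries, log2(FPKM + 1), by library and coloured by class, with medians of the 44 genes (black) and of all genes tested (dashed). The median of the 44 genes is -0.27 in NC 1 and lies between -0.02 and 0.11 in the other libraries.

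The difference between NC 1 and NC 2 moved with GC content. Across the 44 genes, it correlated with the GC content of the most abundant transcript at a Pearson r of 0.563 and a Spearman rho of 0.589, and across 11775 genes at 0.765 and 0.788. The points share the same 2 libraries and are not independent. Of the members, 13 lay higher in NC 1 than in NC 2 and 31 lower. The median GC content was 50.3% for the members and 50.1% for all genes, and the median transcript length 1458.5 and 2767 bases. The GC and length trend of each library was then removed, an alternative chosen after seeing the data. After this, 33 of 44 were higher, against 53.7% of all genes, with a median of 0.11. The members' median in NC 1 moved from -0.27 to -0.15, where that of all genes was -0.05 after removal. In that setting 2 members, PSMC1 and PSMC5, had an unadjusted p under 0.05, against 3.13% of genes that were higher and 2.91% that were lower, and 6 members did not overlap and were higher, against 7.61% of all genes. These were PSMC1, PSMC5, PSMD8 and PSMD11 with PSMB10 and PSME1, while the groups of PSMA3 overlapped. PSMD8 kept a log2 fold change of 0.54, with an unadjusted p of 0.0671.

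**Figure D3:**
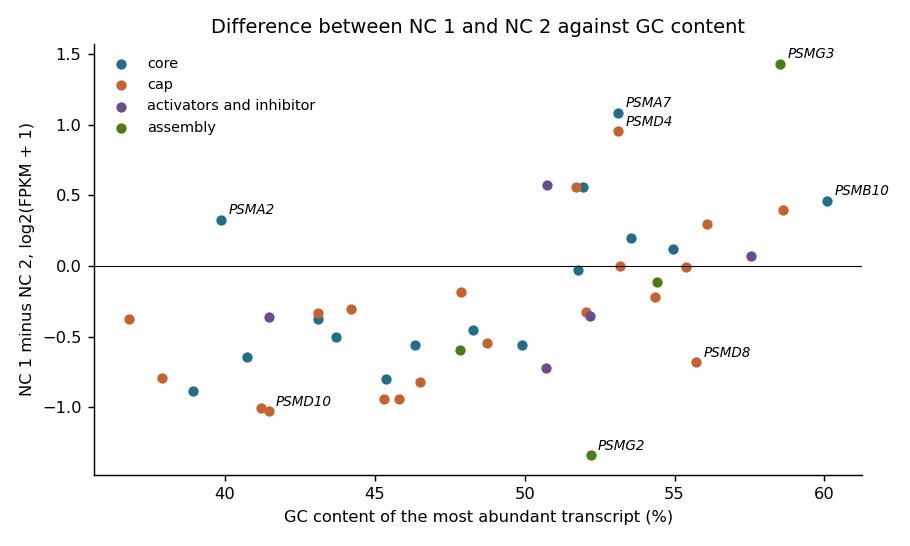
Difference between NC 1 and NC 2 on the log2(FPKM + 1) scale against the GC content of the most abundant transcript, for the 44 genes coloured by class. Points rise from left to right, with PSMG3 highest and PSMG2 lowest.

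In the core, 13 of 15 genes were higher in FGL1-OE with a median log2 fold change of 0.16, and in the cap 17 of 20 with a median of 0.18. The core median was 0.08 without FGL1-OE 1, and the cap median was 0.09 without NC 1. The activators and inhibitor had 5 of 5 and 0.15, and the assembly genes 2 of 4 and 0.07. Within the core, the medians were 0.11 for the alpha ring, which had 5 of 7 higher, and 0.16 for the beta ring, which had 8 of 8. Within the cap, they were 0.14 for the ATPases, which had 6 of 6 higher, 0.24 for the non-ATPase subunits, which had 9 of 11, and 0.05 for the chaperones PSMD5, PSMD9 and PSMD10. These classes differ in number of genes and were not tested against each other. The median log2(FPKM + 1) of the core exceeded that of the cap by 1.01, 0.24 and 0.42 in NC 1, 2 and 3. In FGL1-OE 1, 2 and 3 the difference was 0.22, 0.38 and -0.12. NC 1 again stood apart, as the highest. FGL1-OE 3 was the lowest and the only library where the cap lay above the core. The remaining libraries of the groups overlapped.

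The members were expressed at very different levels. PSMA7, an alpha subunit of the core, was the highest, at 669, 315 and 540 FPKM (NC 1 to 3) against 519, 458 and 457 FPKM (FGL1-OE 1 to 3), and it alone made up between 12.7% and 25.1% of the members' summed FPKM. PSMB3, PSMB4, PSMB7 and PSMD4 followed with means of 237, 183, 175 and 118 FPKM, and PSMG4, an assembly chaperone, was the lowest with a mean of 1.80 FPKM. Together the 44 genes took between 1.10% and 1.33% of all listed FPKM in a library. The plot of levels by class shows that the spread over libraries was small beside the differences between genes, and neighbours in the order often overlapped.

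**Figure D4:**
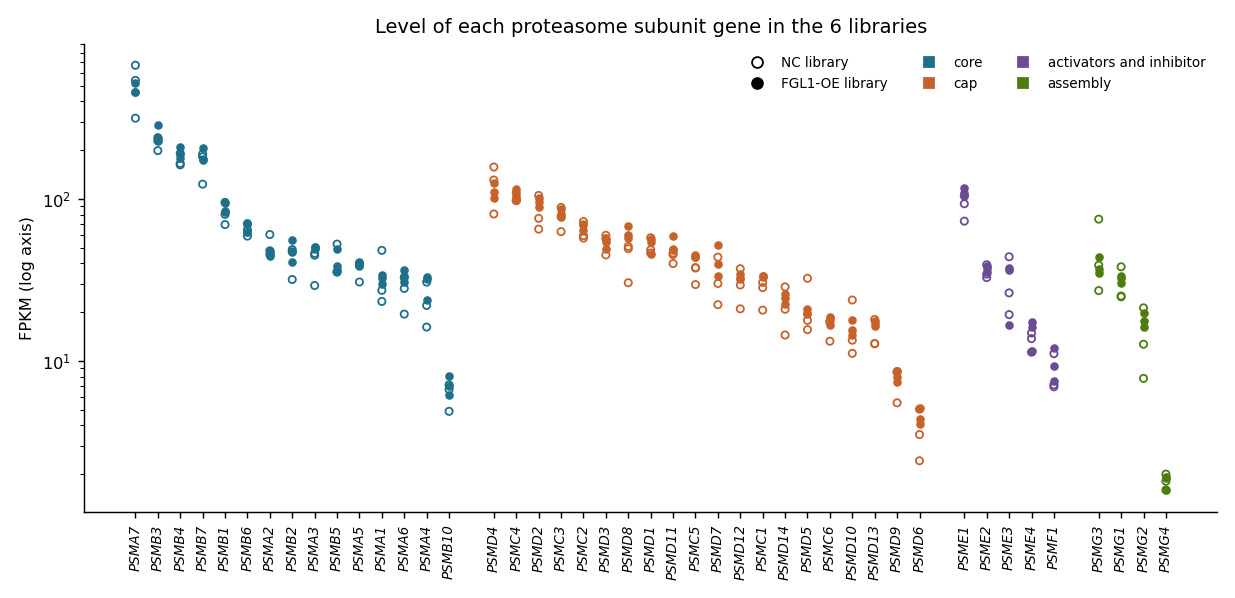
FPKM (log axis) of each of the 44 genes in the 3 NC libraries (open) and the 3 FGL1-OE libraries (filled), ordered by mean within each class. PSMA7 reaches 669 FPKM in NC 1 and PSMG4 stays at or under 2.00 FPKM.

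PSMD8, a non-ATPase subunit of the cap (chromosome 19, 38865176 to 38874464 on GRCh37), had the largest log2 fold change. It was at 30.4, 49.3 and 50.9 FPKM (NC 1 to 3) against 67.8, 57.8 and 60.3 FPKM (FGL1-OE 1 to 3). All FGL1-OE libraries lay above all NC libraries, and NC 1 lay far below the rest. Its log2 fold change was 0.53 (standard error 0.22, limma unadjusted p = 0.0445, adjusted p = 1.00; p = 0.1 by an exact two-sided permutation test, which can go no lower with 3 libraries against 3). Without NC 1 it was 0.30, and the unadjusted p was 0.0815. Leaving out FGL1-OE 1, 2 or 3 gave a limma unadjusted p of 0.129, 0.0740 and 0.0892. It was under 0.05 without NC 2 and without NC 3, and the log2 fold change was 0.66 without NC 3.

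PSMC5, an ATPase of the cap (chromosome 17, 61904512 to 61909386), was at 29.6, 37.5 and 37.7 FPKM (NC 1 to 3) against 44.04, 43.9 and 45.4 FPKM (FGL1-OE 1 to 3). Its groups did not overlap. The difference on the log2 scale was 0.35 with a standard error of 0.15 (limma unadjusted p = 0.0578). PSMC1, another ATPase of the same ring (chromosome 14, 90722839 to 90741773), was at 20.6, 30.5 and 28.4 FPKM (NC 1 to 3) against 33.1, 33.3 and 33.2 FPKM (FGL1-OE 1 to 3). Its log2 fold change was 0.33, or 0.17 without NC 1 and 0.44 without NC 2. The FGL1-OE libraries were nearly equal and NC 1 was low. From the summed transcripts of PSMC1 the value was 0.07, and PSMC1 has 13 named pseudogenes with which reads may be shared. PSMC1, PSMA3 and PSMD11 are named here because their groups did not overlap, a choice made after their values were seen.

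PSMA3, an alpha subunit (chromosome 14, 58711549 to 58738730), was at 29.3, 46.2 and 45.0 FPKM (NC 1 to 3) against 50.5, 50.8 and 49.3 FPKM (FGL1-OE 1 to 3). Its log2 fold change was 0.34, or 0.14 without NC 1 and 0.46 without NC 2. PSMD11, a cap subunit that helps set how much proteasome is assembled (chromosome 17, 30771279 to 30810336), was at 39.9, 45.4 and 46.4 FPKM (NC 1 to 3) against 49.2, 48.5 and 59.5 FPKM (FGL1-OE 1 to 3). Its log2 fold change was 0.25, or 0.15 without FGL1-OE 3 and 0.30 without FGL1-OE 2. For both genes the lowest FGL1-OE library lay only a few FPKM above the highest NC library.

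The upstream regions of these 5 genes are shown because their groups did not overlap and because subunit genes can be driven together by shared promoter motifs. Each window runs from 250 bases before to 50 bases after a RefSeq start site (GRCh38.p14), 5′ to 3′ on the gene's strand. Capitals mark matches on either strand to TGACNNNGC (the antioxidant response element), CCAAT (recognised by NF-Y), CCGGAA (recognised by ETS factors) and TATAAA (the letters of a TATA box, at any position). PSMC5 has 2 start sites in the table. Overlapping matches share a run of capitals, as in PSMC1.
PSMD8 chr19:38374321-38374620: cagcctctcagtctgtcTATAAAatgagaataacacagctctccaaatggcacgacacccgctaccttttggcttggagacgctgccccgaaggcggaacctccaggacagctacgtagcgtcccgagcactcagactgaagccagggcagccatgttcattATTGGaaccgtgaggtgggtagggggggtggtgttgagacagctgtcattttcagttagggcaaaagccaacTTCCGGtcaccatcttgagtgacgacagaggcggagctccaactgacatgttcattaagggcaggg
PSMC5 chr17:63827181-63827480: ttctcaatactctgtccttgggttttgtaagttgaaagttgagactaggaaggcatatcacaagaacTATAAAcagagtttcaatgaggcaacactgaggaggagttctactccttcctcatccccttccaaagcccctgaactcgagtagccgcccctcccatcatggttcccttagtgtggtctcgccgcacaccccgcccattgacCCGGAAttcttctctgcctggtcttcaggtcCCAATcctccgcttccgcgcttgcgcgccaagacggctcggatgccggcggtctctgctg
PSMC5 chr17:63827471-63827770: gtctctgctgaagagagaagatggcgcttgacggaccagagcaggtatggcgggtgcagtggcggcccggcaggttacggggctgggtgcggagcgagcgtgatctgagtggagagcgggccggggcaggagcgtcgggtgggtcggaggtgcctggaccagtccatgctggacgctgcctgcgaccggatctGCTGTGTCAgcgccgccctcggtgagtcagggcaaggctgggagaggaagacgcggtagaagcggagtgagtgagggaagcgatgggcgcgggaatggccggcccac
PSMC1 chr14:90256303-90256602: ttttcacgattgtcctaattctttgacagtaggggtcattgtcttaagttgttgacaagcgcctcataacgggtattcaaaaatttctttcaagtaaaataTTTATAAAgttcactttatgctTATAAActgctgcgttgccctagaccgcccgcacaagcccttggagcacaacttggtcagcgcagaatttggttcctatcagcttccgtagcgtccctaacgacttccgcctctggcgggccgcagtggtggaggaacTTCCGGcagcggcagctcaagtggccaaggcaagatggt
PSMA3 chr14:58244593-58244892: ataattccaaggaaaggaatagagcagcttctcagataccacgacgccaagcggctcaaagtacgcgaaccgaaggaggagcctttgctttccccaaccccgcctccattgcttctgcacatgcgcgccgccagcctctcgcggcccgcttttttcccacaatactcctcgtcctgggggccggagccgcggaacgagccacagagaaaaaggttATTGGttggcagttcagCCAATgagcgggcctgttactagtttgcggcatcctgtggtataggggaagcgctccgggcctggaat
PSMD11 chr17:32444260-32444559: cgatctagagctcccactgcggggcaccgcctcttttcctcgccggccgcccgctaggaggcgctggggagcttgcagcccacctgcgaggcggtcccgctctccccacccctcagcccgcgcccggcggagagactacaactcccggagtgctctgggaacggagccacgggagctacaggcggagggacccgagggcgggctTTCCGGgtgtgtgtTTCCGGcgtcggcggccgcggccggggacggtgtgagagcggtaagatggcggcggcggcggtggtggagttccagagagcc

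Of these genes, PSMC5 alone held TGACNNNGC, in its second window, which lies downstream of the first PSMC5 start site. Windows of 38 of the 44 genes were matched, 46 windows in all. TGACNNNGC was found in 30.4% of them and in 13.3% of all 35116 windows, CCGGAA in 45.7% and 17.2%, CCAAT in 39.1% and 34.6%, and TATAAA in 8.7% and 11.5%. A match is only a run of letters, and no match says nothing about a factor.

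The peptide-cutting beta subunits are PSMB5, PSMB6 and PSMB7, and PSMB10 replaces PSMB7 in the immunoproteasome. PSMB5 was at 52.7, 35.5 and 35.4 FPKM (NC 1 to 3) against 49.0, 36.6 and 38.6 FPKM (FGL1-OE 1 to 3), which is a log2 fold change of 0.02 (standard error 0.21). Its groups overlapped fully. The log2 fold change of PSMB6 was 0.01 (standard error 0.15), that of PSMB7 0.19 (0.20) and that of PSMB10 0.16 (0.18), none with an unadjusted p under 0.05. The value of PSMB10 was 0.02 without NC 2 and 0.08 without FGL1-OE 1. PSMB10 had a mean of 6.64 FPKM, against 175 FPKM for PSMB7. In the alpha ring, the highest log2 fold change was that of PSMA4 (0.39, standard error 0.25) and the lowest that of PSMA2 (-0.15, standard error 0.16), which was highest in NC 1 at 60.3 FPKM. Without NC 1 these values were 0.17 and -0.02, and without NC 2 that of PSMA4 was 0.61.

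In the cap, PSMD14, the deubiquitinase that removes ubiquitin chains at the entrance, was at 14.5, 28.7 and 20.9 FPKM (NC 1 to 3) against 22.4, 24.3 and 25.9 FPKM (FGL1-OE 1 to 3), which is a log2 fold change of 0.22 (standard error 0.24). NC 1 was lowest and NC 2 highest, so the groups overlapped. PSMD4, a ubiquitin receptor, had the lowest value of the non-ATPase subunits, -0.08 (standard error 0.25), with NC 1 at 157 FPKM and NC 2 at 80.8 FPKM on either side of the FGL1-OE libraries, which lay between 101 and 125 FPKM. Among the chaperones that help assemble the cap, PSMD9 was at 0.09 (standard error 0.19) and PSMD5 at -0.05 (standard error 0.26).

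PSME1, a subunit of the activator that caps the core in place of the ATPase cap, was the largest among activators, at 73.0, 93.4 and 105 FPKM (NC 1 to 3) against 117, 104 and 109 FPKM (FGL1-OE 1 to 3), which is a log2 fold change of 0.29 (standard error 0.18). FGL1-OE 2 lay below NC 3, so the groups overlapped. The value was 0.15 without NC 1, the lowest library, and 0.41 without NC 3. Of the assembly chaperones, PSMG2 (chromosome 18, 12658042 to 12725739) was at 7.81, 21.3 and 12.7 FPKM (NC 1 to 3) against 17.7, 16.1 and 19.8 FPKM (FGL1-OE 1 to 3) (0.44, standard error 0.32), and PSMG3 at 75.1, 27.2 and 39.0 FPKM (NC 1 to 3) against 43.7, 34.7 and 36.9 FPKM (FGL1-OE 1 to 3) (-0.17, standard error 0.34). The NC libraries of both genes spread over more than the FGL1-OE libraries, with NC 1 lowest for PSMG2 and highest for PSMG3. Without NC 1 the log2 fold changes were 0.11 and 0.22, and without NC 2 they were 0.78 and -0.49.

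The genes around the proteasome were counted in the same way. A list of 13 other genes held proteins that bind the proteasome or help to assemble it, and the left-out core subunits PSMB8 and PSMB9. Of these 13, 11 were higher, PSMB8 and PSMB9 among them, with a median log2 fold change of 0.12. Of 10 genes of the NFE2L1 pathway, 3 were higher, with a median of -0.13. The list holds the factor genes NFE2L1, NFE2L2, MAFF, MAFG and MAFK, at -0.50, -0.15, -0.30, -0.23 and -0.24. It also holds genes for the processing of NFE2L1, which lay nearer to no change. These were SEL1L, NGLY1, VCP, DDI2 and SYVN1, at 0.02, 0.11, 0.10, -0.0013 and -0.11. NFE2L1 was at 43.1, 24.0 and 49.4 FPKM (NC 1 to 3) against 31.3, 25.5 and 21.96 FPKM (FGL1-OE 1 to 3) (-0.50, standard error 0.28, limma unadjusted p = 0.116). NC 2 lay within the FGL1-OE range, so the groups overlapped. The value of NFE2L1 was -0.81 without NC 2 and -0.30 without NC 3. Of 12 genes of ubiquitin supply and shuttling, 7 were higher, with a median of 0.04. None of these genes had an unadjusted p under 0.05.

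Subunit genes of 2 other large complexes were placed beside the members. Of 10 genes of the COP9 signalosome, a complex that resembles the cap, 7 were higher with a median of 0.08, and the groups did not overlap for COPS6 (higher) and COPS7B (lower). Of 8 genes of the CCT chaperonin, the folding barrel, all 8 were higher, with a median of 0.23, and 4 (CCT2, CCT3, CCT4 and CCT5) did not overlap between groups, all higher. Over all genes, 4.09% did not overlap and were higher and 3.06% were lower. No gene of either list had an unadjusted p under 0.05. CCT4 was at 101, 148 and 148 FPKM (NC 1 to 3) against 166, 159 and 160 FPKM (FGL1-OE 1 to 3), with NC 1 again the lowest. No difference between the proteasome genes and these lists was tested.

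Counting uncertainty may bear on several members, and its effect on their values was not tested. In the annotation, 12 of the 44 genes have named pseudogenes, 32 in all, 5 overlap another coding gene on the same strand and 11 a coding gene on the other strand, among them PSMC5 with FTSJ3 and PSMC1 with NRDE2. Values of these genes are uncertain where the counting could split reads. The library kit keeps strand, but the strand setting of the counting is not given in the sources used here.

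The 44 genes had between 1 and 11 listed transcripts, with a median of 3. Of the 156 transcripts, 153 passed the filter on low values, and 87 of these were higher in FGL1-OE, against 51.9% of all 30330 transcripts tested. With limma and adjustment over all transcripts, 0 of the 153 passed, against 0.0165% of all transcripts. At an unadjusted p under 0.05 there were 3 (3.53% of all transcripts), of which 1 was higher (2.05%) and 2 were lower (1.48%). The groups did not overlap for 12 member transcripts (8.22% of all transcripts), 6 higher (4.65%) and 6 lower (3.57%). On the log2 scale the median SD within NC was 0.57 for a member transcript and 0.32 for a member gene, and within FGL1-OE 0.29 and 0.11. Over all transcripts and all genes tested, it was 0.50 and 0.31 within NC and 0.29 and 0.12 within FGL1-OE. Transcripts varied more between libraries of 1 group than genes did.

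ENST00000560737 of PSMA4 was at 14.3, 15.0 and 23.6 FPKM (NC 1 to 3) against 27.2, 26.7 and 31.04 FPKM (FGL1-OE 1 to 3), which is a log2 fold change of 0.69 (standard error 0.28, limma unadjusted p = 0.0458). Leaving out any 1 library other than NC 3 gave an unadjusted p between 0.0832 and 0.125. Its groups did not overlap, but its share of the summed PSMA4 transcripts was 13.7% in NC and 15.1% in FGL1-OE (exact two-sided permutation test, p = 0.7). The most abundant transcript of PSMA4, ENST00000558341, was at 49.96, 41.2 and 66.8 FPKM (NC 1 to 3) against 56.8, 58.7 and 61.1 FPKM (FGL1-OE 1 to 3), and its groups overlapped.

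ENST00000585331 of PSMG2 was at 10.1, 4.48 and 5.30 FPKM (NC 1 to 3) against listed values of 0, 4.32 and 0 FPKM (FGL1-OE 1 to 3), which is a log2 fold change of -2.06 (standard error 0.72, limma unadjusted p = 0.0272). Leaving out any 1 library other than FGL1-OE 2 gave an unadjusted p between 0.0523 and 0.0924. Its share of the PSMG2 transcripts was 31.8% in NC and 5.03% in FGL1-OE (exact two-sided permutation test, p = 0.2). The highest FGL1-OE library lay only just under the lowest NC library, and a value of 0 in a table of estimates may be a failed estimate. The most abundant PSMG2 transcript, ENST00000317615, was at 2.12, 30.4 and 15.9 FPKM (NC 1 to 3) against 23.5, 17.5 and 26.1 FPKM (FGL1-OE 1 to 3). The other PSMG2 transcript with an unadjusted p under 0.05, named for that count after its values were seen ENST00000586445, was at 3.75, 0.95 and 2.29 FPKM (NC 1 to 3) against listed values of 0, 1.35 and 0 FPKM (FGL1-OE 1 to 3), and its groups overlapped.

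A typical member transcript shared most of its sequence with others of its gene, and how reads were assigned between them was not examined. A median of 3.55% of the 31-base words of a member transcript were found in no other annotated transcript of the same gene, and 34 of the 156 transcripts had none of their own. PSMD8 is an example chosen after its values were seen. ENST00000602911 was at 1.27, 87.8 and 88.3 FPKM (NC 1 to 3) against 127, 106 and 0.09 FPKM (FGL1-OE 1 to 3). ENST00000620216 was at 27.6, 8.75 and 5.23 FPKM (NC 1 to 3) against 3.54, 13.4 and 92.1 FPKM (FGL1-OE 1 to 3). The former was at or under 1.27 FPKM in NC 1 and FGL1-OE 3, the libraries where the latter was highest, and neither had any word of its own. The leading transcript of PSME3, an activator subunit, also differed between libraries. ENST00000441946 was at 39.5 FPKM in NC 1 and under 1 FPKM elsewhere, and ENST00000293362 at 59.4 FPKM in NC 2 and under 1 FPKM elsewhere. ENST00000622892 was at 41.8 FPKM in FGL1-OE 2 and at most 1.47 FPKM elsewhere. The cause was not tested.

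**Figure D5:**
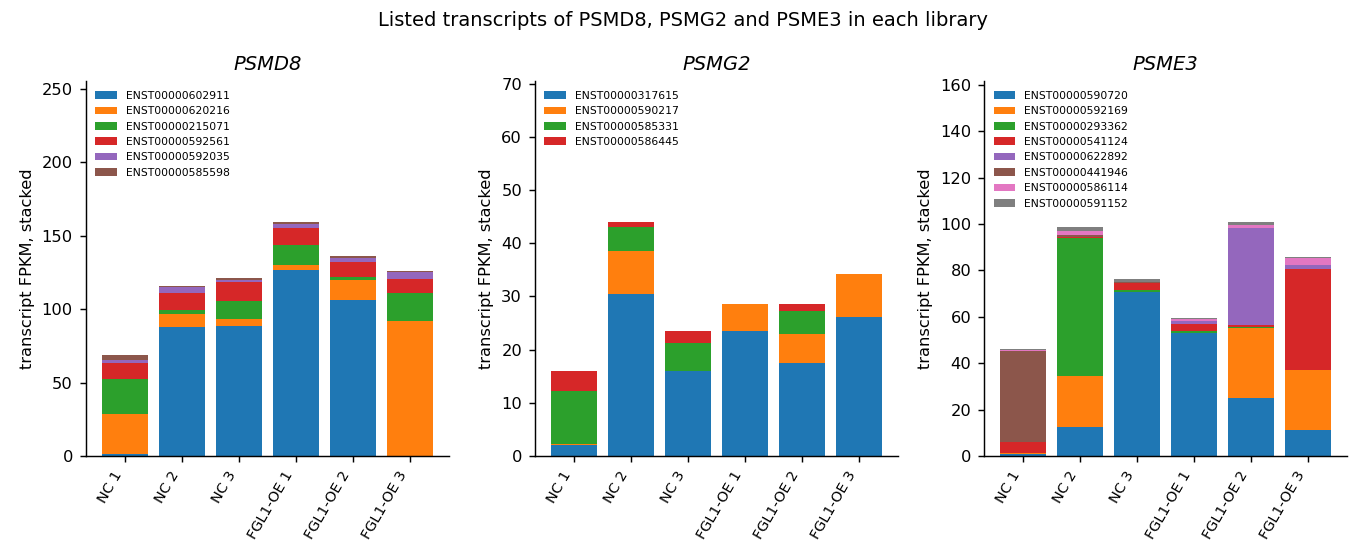
Listed transcripts of PSMD8, PSMG2 and PSME3 as stacked FPKM in the 6 libraries, NC 1 to 3 and FGL1-OE 1 to 3. The leading transcript of PSMD8 and of PSME3 changes between libraries of 1 group, and the blue PSMG2 transcript is low in NC 1.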

How the data were processed

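RNA-seq of TE-1 cells was analysed for 3 NC and 3 FGL1-OE libraries, grouped by the genotype in the labels. The authors deposited FPKM values per gene and per transcript, and the submitters' processing notes name GRCh37 and StringTie without roles or versions, while the aligner is not given in the sources used here. The deposited comparisons between groups (fold changes and p-values) were not used. The number of value columns with no known sample was 0. The depth is unknown, so no counting intervals are given. Features averaging 0.5 FPKM or more, 12017 genes and 30330 transcripts, were tested on log2(FPKM + 1), a pseudocount of 1 that understates changes of low features, with limma 3.58.1 in R 4.3.3 and Benjamini-Hochberg adjustment over each table at 0.05. The code was tested on simulated data. The members and lists were chosen with earlier results of these data known. Genes with fold changes are the largest rise and fall in each role, those with an unadjusted p under 0.05, the catalytic subunits and PSMD14, NFE2L1 and FGL1. Transcripts are those of members with an unadjusted p under 0.05 and groups that did not overlap, with the most abundant one of the same genes. Other named features were chosen after their values were seen. Coordinates of genes are on GRCh37. GC content, length, overlaps and 31-base words came from GENCODE v29, and promoters and coordinates of windows from RefSeq on GRCh38.p14, with Python 3.11.15. Alternatives were a pseudocount of 0.1, other filters, a common sum, quantile normalization, other variance estimates, a replicate block, leaving out each library, sums of transcripts and, added after seeing the data, removal of the GC and length trend.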

Additional observations from a re-analysis of the deposited data

How the results depend on the processing

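The depth of the libraries is unknown, and with 3 libraries a group limma with adjustment called 0 member genes and 0 member transcripts in every setting tried. The number of member genes with a higher mean was 37, and between 31 and 37 when each library was left out and between 33 and 37 in the other settings. The number higher at an unadjusted p under 0.05 was 1, and it was 0 with a pseudocount of 0.1 and with quantile normalization, 2 with the GC and length trend removed, and between 0 and 11 when each library was left out, with 11 without NC 2 and 0 without NC 1 or any 1 FGL1-OE library. The cause was not tested. Among transcripts, the number higher was 1, 0 with a mean of at least 1 FPKM, 2 with an ordinary linear model and with a trended robust variance, and between 2 and 5 when each library was left out, and the number lower was 2 and between 1 and 7. When each library was left out, the median log2 fold change was between 0.085 and 0.22 for all members, 0.076 and 0.21 for the core, 0.085 and 0.24 for the cap, 0.047 and 0.25 for the activators and inhibitor, and 0.049 and 0.17 for the assembly genes. The median of the assembly genes was 0.07, reversed to -0.045 from summed transcripts, and PSMB5 was reversed to -0.034 from summed transcripts and to -0.00066 after removal of that trend. The value of FGL1 was between 5.13 and 8.12 in the settings other than leaving out a library, and between 5.16 and 5.29 there.

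Leaving out 1 library turned the direction of PSMB5 (-0.10 to 0.21), PSMB6 (-0.052 to 0.074), PSMB7 (-0.0099 to 0.30), PSMD14 (-0.018 to 0.45), PSMD4 (-0.36 to 0.12), PSMD5 (-0.25 to 0.25), PSMD9 (-0.093 to 0.19) and PSMG3 (-0.49 to 0.22). The share of ENST00000560737 was 1.46 percentage points higher in FGL1-OE and between -0.37 and 2.87 when each library was left out, and that of ENST00000585331 between -37.6 and -11.3. Among single features other than FGL1, 212 results in the remaining settings kept their direction and 2 reversed. With a library left out, 121 kept it and 11 reversed. The other filters, variance estimates and the replicate block leave a fold change as it is, so no direction could turn there. None of these features had an adjusted p under 0.05 in any setting, the lowest being 0.19 by limma, so the side of the threshold is uninformative.

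Whether the replicate numbers pair the samples was not settled. The deviations of libraries with the same number correlated at 0.345, 0.282 and -0.0614 for numbers 1, 2 and 3. The values for numbers 1 and 2 were the highest of all pairs of an NC and an FGL1-OE library. NC 3 correlated best with FGL1-OE 1, at 0.111. With the replicate number as a block, 0 member genes and 0 member transcripts were higher at an unadjusted p under 0.05, against 1 and 1 without it.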
